A study of Mus musculus with 2 samples.

Results

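Cathepsins are proteases that for the most part work inside lysosomes, and the 10 genes described here are Ctsa, Ctsb, Ctsc, Ctsd, Ctse, Ctsh, Ctsk, Ctsl, Ctss and Ctsz. They were chosen by gene symbol and not by a cut on measured values, out of 55536 genes with a row in the tables. Earlier results of these data were known at that point. Total RNA was taken from the nucleoplasm of bone marrow-derived macrophages of strain C57BL/6J, which are primary cells grown from mouse marrow, depleted of ribosomal RNA and sequenced. All cells had received lipid A, the membrane anchor of bacterial lipopolysaccharide that activates the receptor TLR4, at 100 ng/ml for 50 minutes. The only group had 2 biological replicates that carry the same donor label, with RNA inputs of 500 ng for replicate 1 and 1 µg for replicate 2. Sex and age were not recorded, and the description names the nucleoplasm where the fraction label says nucleus. An untreated library was not analysed here, so the levels say nothing about what lipid A changed, and no test between conditions was possible. With 2 libraries the SD measures only the spread between these samples.

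Cathepsins are made as inactive precursors that are tagged with mannose 6-phosphate, carried to the lysosome and cut there into the active enzyme. Cysteine cathepsins cleave with a cysteine in the active site, aspartic cathepsins with a pair of aspartates, and cathepsin A with a serine. In macrophages they digest engulfed material and trim the invariant chain and antigens for presentation on class II molecules. In nuclear RNA, finished messages are measured together with transcripts that still carry introns, so the isoform an RNA is assigned to is part of the result here.

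The coding sequence around the catalytic residue was used to ask which isoforms hold it. It is shown for 9 members, each in the highest coding isoform that holds it. For Ctsc this is not the highest coding isoform. By class, 7 members are cysteine proteases, 2 are aspartic proteases and 1 is a serine protease. Each stretch is 33 bases of the GENCODE M21 transcript, 5′ to 3′ on the coding strand, with the catalytic codon in capitals (for Ctse, the codon of the aspartate nearer the N terminus). Positions are on mm10, and those of Ctsb and Ctsc span an intron.
Ctsb-201, chr14:63135702-63136418 (+): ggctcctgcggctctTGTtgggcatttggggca
Ctsc-201, chr7:88302300-88308044 (+): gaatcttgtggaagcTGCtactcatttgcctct
Ctsh-201, chr9:90064507-90064539 (+): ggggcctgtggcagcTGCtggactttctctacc
Ctsk-201, chr3:95502582-95502614 (+): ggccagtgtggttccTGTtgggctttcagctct
Ctsl-201, chr13:64367060-64367092 (-): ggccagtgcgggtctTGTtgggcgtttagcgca
Ctss-202, chr3:95545333-95545365 (+): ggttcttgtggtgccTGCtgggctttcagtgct
Ctsz-201, chr2:174438181-174438213 (-): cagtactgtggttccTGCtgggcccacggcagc
Ctse-201, chr1:131663356-131663388 (+): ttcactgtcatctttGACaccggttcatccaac
Ctsa-202, chr2:164835228-164835260 (+): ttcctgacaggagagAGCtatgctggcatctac
Among the 21 pairs of cysteine members, the stretches shared between 14 of 33 bases (Ctsc and Ctsl) and 26 of 33 bases (Ctsk and Ctsl), with a median of 19. The catalytic cysteine was written TGT in 3 members and TGC in 4.

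At the gene level, 8 of the 10 cathepsins were abundant in nucleoplasmic RNA and 2, Ctsk and Ctse, were near the detection limit. In each library the 8 had at least 1 TPM (transcripts per 1000000, a level per length), and all 8 had at least 100 TPM. Of 22015 protein-coding genes outside the mitochondrial genome, 38.7% had at least 1 TPM in each library. The members were chosen with earlier results known, so 8 of 10 against this share depends in part on which cathepsin genes were listed. The further genes of the family, described below, were mostly undetected. Of the same 22015 genes, 360 averaged at least 100 TPM and were above 0 in both libraries. The median over all 10 members was 308 ± 20.3 TPM (SD, n = 2), with 322 TPM in replicate 1 and 294 TPM in replicate 2. The median over the 8523 detected protein-coding genes was 7.48 TPM. The members held 1.97% of the TPM of protein-coding genes in replicate 1 and 2.51% in replicate 2. They held 1.32% of gene counts in replicate 1 (Wilson 95% interval 1.31 to 1.33%) and 1.73% in replicate 2 (1.72 to 1.73%). Since the RNA was taken in bulk, more cells with a transcript and more RNA per cell cannot be told apart.

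**Figure D1:**
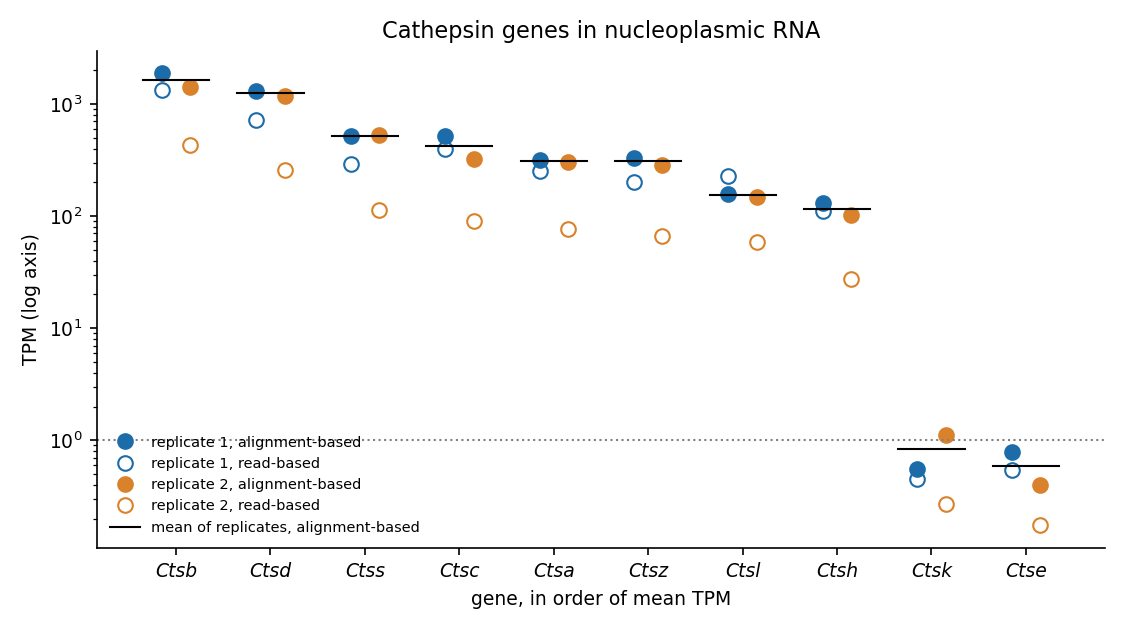
TPM of the 10 cathepsin genes on a log axis, with replicate 1 left of replicate 2 for each gene. Filled points are the alignment-based values used throughout, open points the read-based values of the same libraries, black lines the mean of the filled points, and the dotted line 1 TPM; 8 genes lie above 100 TPM in both alignment-based values, and Ctsk and Ctse lie near 1 TPM.

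Among the cysteine members, Ctsb was the highest of all cathepsins. Cathepsin B cuts proteins internally and also removes dipeptides from their ends. Ctsb (chromosome 14, 63122462 to 63145923, plus strand) had 1877 TPM in replicate 1 and 1408 TPM in replicate 2, a mean of 1642.5 ± 332 TPM (SD, n = 2), from 75698 and 200945 expected counts. It ranked 6 among protein-coding genes by mean TPM. Ctsb alone made up 36.4% of all member TPM in replicate 1 and 32.9% in replicate 2, and the 7 cysteine members together made up 68.3% and 65.4%.

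Ctss and Ctsc came next among the cysteine members, at similar mean levels. Cathepsin S trims the invariant chain in antigen-presenting cells, and cathepsin C is a dipeptidyl peptidase that activates granule serine proteases. Ctss (chromosome 3, 95526786 to 95556403, plus strand) had 514 TPM in replicate 1 and 532 TPM in replicate 2. Ctsc (chromosome 7, 88278085 to 88310888, plus strand) had 517 TPM in replicate 1 and 321 TPM in replicate 2. Ctsc was above Ctss in replicate 1 and below it in replicate 2, so the ranges of these neighbours overlap. Ctsc spans the whole of Gm26522, a long noncoding RNA gene on the opposite strand which took 1898 expected counts in replicate 1 and 2563 in replicate 2. The genes share 0 exon bases, and the authors' posterior SD of the count was 0 for both genes in both libraries.

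Ctsz, Ctsl and Ctsh were lower but still far above the median gene. Cathepsin Z removes single residues from the C terminus, cathepsin L is an endopeptidase, and cathepsin H works mainly as an aminopeptidase. Ctsz (chromosome 2, 174427493 to 174439039, minus strand) had 329 TPM in replicate 1 and 285 TPM in replicate 2. Ctsl (chromosome 13, 64359337 to 64370890, minus strand) had 158 TPM in replicate 1 and 149 TPM in replicate 2. Ctsh (chromosome 9, 90054152 to 90076089, plus strand) had 131 TPM in replicate 1 and 102 TPM in replicate 2. In the alignment-based values the ranges of Ctsz, Ctsl and Ctsh did not overlap each other.

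Ctsk, the collagen-degrading cathepsin of osteoclasts, was at the detection limit. Ctsk (chromosome 3, 95499256 to 95509362, plus strand) had 0.55 TPM in replicate 1 and 1.11 TPM in replicate 2. These values rest on 8 expected counts in replicate 1 (exact Poisson 95% interval 3.45 to 15.8) and 50 in replicate 2 (37.1 to 65.9), which cover counting error only. The 5 osteoclast markers summed to 5.61 TPM in replicate 1 and 10.8 TPM in replicate 2, most of it Acp5, which alone of the 5 had at least 1 TPM in each library. Among the other osteoclast markers, Calcr and Mmp9 were each listed at 0 in 1 library. The osteoclast sum and Ctsk were both higher in replicate 2, and the part of such cells in the Ctsk level was not tested.

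Of the aspartic members, Ctsd was the second most abundant cathepsin and Ctse was near the detection limit. Cathepsin D is the main aspartic endopeptidase of lysosomes, and cathepsin E is a related enzyme of endosomes found in the stomach and in some immune cells. Ctsd (chromosome 7, 142375911 to 142388038, minus strand) had 1319.6 TPM in replicate 1 and 1177 TPM in replicate 2. It ranked 10 among protein-coding genes by mean TPM. Ctsb and Ctsd together made up 61.9% of member TPM in replicate 1 and 60.4% in replicate 2. Ctse (chromosome 1, 131638306 to 131675505, plus strand) had 0.79 TPM in replicate 1 and 0.40 TPM in replicate 2, from 17 expected counts (exact Poisson 95% interval 9.9 to 27.2) and 26 expected counts (17 to 38.1). Its range overlapped that of Ctsk.

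Ctsd shares exon bases with another annotated gene, so its level depends on how reads were divided between them. The gene Gm49369 runs through Ctsd on the same strand (142371096 to 142382667), and 808 of its 1023 exon bases are also exon bases of Ctsd. Gm49369 had 705 TPM in replicate 1, with 668 TPM in replicate 2. The authors' posterior SD of the count was 116 in replicate 1 and 237 in replicate 2 for Ctsd, and the same to 3 digits for Gm49369. Both genes summed to 2024 TPM in replicate 1 and 1845 TPM in replicate 2, above the value of Ctsb in both libraries. Each TPM is scaled by its own gene's effective length, so the sum is not the level of 1 merged gene. In expected counts of replicates 1 and 2, Ctsd had 27108 and 72135 and Gm49369 had 4850 and 14606. Ctsb had 75698 and 200945, so in counts both genes together stayed below Ctsb in both libraries. The place of Ctsd against Ctsb with the genes merged thus depends on the measure.

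The serine member Ctsa lay in the middle of the family. Cathepsin A is a carboxypeptidase and also the protective protein that holds neuraminidase and beta-galactosidase in a complex. Ctsa (chromosome 2, 164832873 to 164841032, plus strand) had 316 TPM in replicate 1 and 302 TPM in replicate 2. Its range overlapped that of Ctsz, which was above Ctsa in replicate 1 and below it in replicate 2. Ctsa shares 495 exon bases with the opposite-strand gene Pltp, and no source used here gives the strand setting of the counting. Ctsa had 4987 expected counts in replicate 1 and 13353 in replicate 2, against 2728 and 8153 for Pltp, and the authors' posterior SD of the Ctsa count was 9.03 and 14.6. In the order of all 10 members by mean TPM, 3 of the 9 neighbouring pairs had overlapping ranges (Ctss with Ctsc, Ctsa with Ctsz, Ctsk with Ctse), and the other 6 pairs kept their order in both libraries. The order of Ctsz and Ctsl was not kept in the read-based values. There Ctsl had 226 TPM in replicate 1 and 59.1 TPM in replicate 2, against 199.8 TPM and 66.4 TPM for Ctsz. The median gene also had a higher read-based TPM in replicate 1, with a log2 ratio of replicate 1 over replicate 2 of 2.26. Read-based TPM is therefore compared here between genes within a library.

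The median gene had a higher TPM in replicate 1, and most abundant cathepsins were low in replicate 1 relative to it. Over 11380 genes that averaged at least 1 TPM, the median log2 TPM ratio of replicate 1 over replicate 2 was 0.69, while protein-coding genes took 26.2% of all TPM in replicate 1 and 17.0% in replicate 2. With counts per 1000000 in place of TPM the median log2 ratio was 0.08. Ratios are therefore given relative to the median gene. All 8 abundant cathepsins had a relative TPM ratio below 0, that is, relatively less in replicate 1, with a median of -0.51, and 7 of them lay more than 0.1 below. In counts per 1000000 it was 7 of 8, with Ctsc at 0.12 above the median gene. Of 360 protein-coding genes at 100 TPM or more, 52.5% had a relative ratio below 0, with a median of -0.02.

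Ctss stood lowest of the 8, with a relative log2 ratio of -0.74. Ctsa followed at -0.63, Ctsl at -0.61, Ctsd at -0.53, Ctsz at -0.48, Ctsh at -0.34 and Ctsb at -0.28. Ctsc lay at the median gene, at -0.0035. None of the 8 lay past 2-fold, where 9.9% of the 11380 genes lay. The robust SD of the relative log2 ratio over those genes was 0.51, and 4 of the 8 cathepsins were within 1 such SD of the median gene. With 1 library on each side no test was possible. Ctsk and Ctse had too low a mean for this comparison and gave -1.70 and 0.29.

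**Figure D2:**
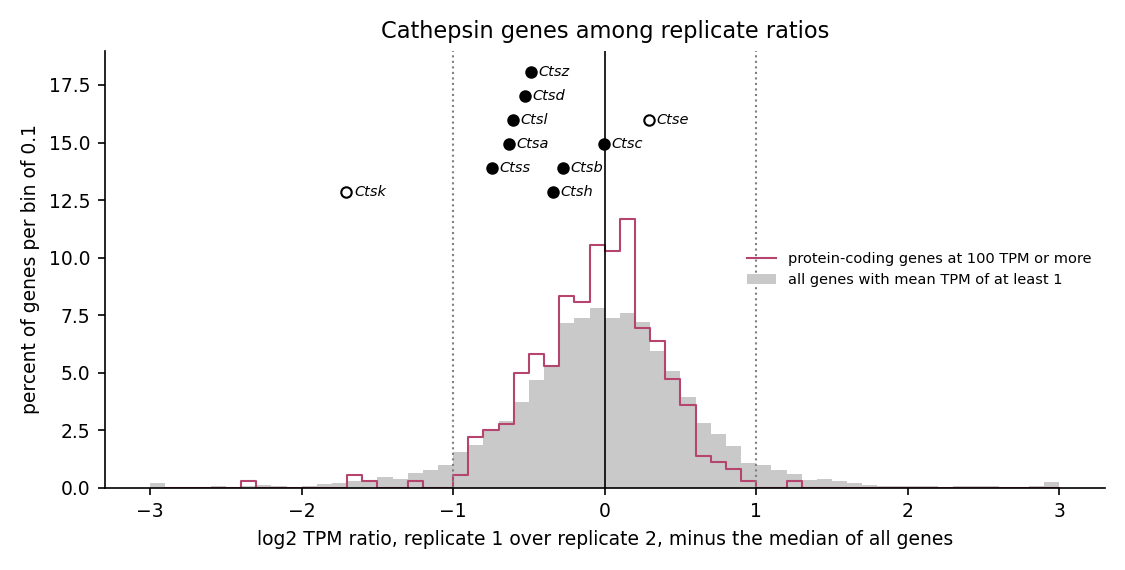
Relative log2 TPM ratio of replicate 1 over replicate 2, with the median gene at 0. Grey bars are the 11380 genes that averaged at least 1 TPM, the red line is the 360 protein-coding genes at 100 TPM or more, points are cathepsins (heights only separate the names; open points did not pass the filter on low values), dotted lines mark 2-fold, and genes past 3 on either side stand in the end bins; the 8 filled points lie between -0.74 and -0.0035.

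Isoform make-up differed widely among the abundant cathepsins. An isoform counts as noncoding here when its annotated type is not protein-coding, which covers retained introns, processed transcripts and targets of nonsense-mediated decay. Ctsk, Ctss and Ctsz have no such isoform in the annotation, and Ctse was too low to be counted. Of the other 6 members, 1 (Ctsh) had over 50% of its TPM in noncoding isoforms in both libraries, and 20.9% of 7677 protein-coding genes with a noncoding isoform did. The median noncoding share was 22.5% over these 6 members in replicate 1 and 20.2% in replicate 2, against 31.0% and 33.7% over the 7677 genes. The share depended strongly on the measure. By expected counts, which weight long isoforms more, the medians were 4.40% and 4.35% over the members, against 15.6% and 17.0% over all such genes. By read-based TPM they were 47.9% and 41.7% over the members, against 46.2% and 44.6%, so the members were below the other genes in only some of these measures.

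Ctsh had 83.9% of its TPM in noncoding isoforms in replicate 1 and 83.8% in replicate 2. The highest Ctsh isoform was Ctsh-202, annotated as a target of nonsense-mediated decay, with 56.0 TPM in replicate 1 and 46.5 TPM in replicate 2. It leaves out an exon of 106 bases, a length that is not a multiple of 3, and its annotated reading frame ends after 41 codons, where Ctsh-201 has 333. Ctsh-201, the highest coding isoform, had 20.97 TPM in replicate 1 and 16.45 TPM in replicate 2, 16.1% of the gene in both. The junctions that tell these isoforms apart are shown with the bases after the junction in capitals (GENCODE M21, mm10).
Ctsh-202, chr9:90060481-90062746 (+): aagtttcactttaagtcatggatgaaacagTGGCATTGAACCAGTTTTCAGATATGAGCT
Ctsh-201, chr9:90060481-90061548 (+): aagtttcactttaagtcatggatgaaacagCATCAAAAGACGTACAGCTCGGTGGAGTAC
Ctsh-202 has 0 bases that no other Ctsh isoform holds, so no single base sets it apart. Its share rests on reads across junctions and on how shared reads were divided among isoforms. Whether other Ctsh isoforms hold the same junction was not examined. In the read-based tables, made from the reads and not from alignments, Ctsh-202 held 21.9% of the gene in replicate 1 and 28.2% in replicate 2. The noncoding share of Ctsh as a whole was 75.1% and 74.3% there.

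In Ctsc the leading isoform was annotated as coding but lacks the catalytic stretch. Ctsc-203 has 137 codons, where Ctsc-201 has 462, and 2833 of its 3220 bases lie in introns of Ctsc-201. Ctsc-203 had 279 TPM in replicate 1 and 153 TPM in replicate 2, which was 53.9% and 47.7% of the gene. Ctsc-201, the only Ctsc isoform with the catalytic stretch, had 131 TPM in replicate 1 and 71.8 TPM in replicate 2, which was 25.4% and 22.4%. Ctsc-203 was thus about as far above Ctsc-201 in one library as in the other. The isoforms part after the exon bases in lower case, and the bases that follow the junction are in capitals.
Ctsc-203, chr7:88281503-88286923 (+): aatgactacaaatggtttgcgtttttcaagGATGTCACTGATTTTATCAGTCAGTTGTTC
Ctsc-201, chr7:88281503-88297112 (+): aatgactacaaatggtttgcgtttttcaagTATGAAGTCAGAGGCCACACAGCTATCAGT
In the read-based tables Ctsc-203 held 41.8% of the gene in replicate 1 and 38.1% in replicate 2, again above Ctsc-201 with 17.5% and 17.3%. The highest noncoding isoform, the retained-intron Ctsc-205, had 77.5 TPM in replicate 1 and 46.6 TPM in replicate 2.

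Ctsb was mostly assigned to its full coding isoform, with a retained-intron isoform that varied between the libraries. Ctsb-201 had 1417 TPM in replicate 1 and 1272 TPM in replicate 2, which was 75.5% and 90.4% of the gene. Ctsb-202 had 330 TPM in replicate 1 and 37.0 TPM in replicate 2, from 2156 and 771 expected counts. In the read-based tables the 2 libraries were closer, with Ctsb-202 at 38.3% of the gene in replicate 1 and 34.1% in replicate 2. Only 91 of the 801 bases of Ctsb-202 lie in no other Ctsb isoform, and 90 of them are intron bases at its start, the last of which are in capitals below.
Ctsb-202, chr14:63135578-63135637 (+): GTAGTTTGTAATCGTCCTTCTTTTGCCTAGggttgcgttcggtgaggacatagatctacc
Ctsb-203, another retained-intron isoform, has 1217 of its 1269 bases in no other isoform and held 6.91% of the gene in replicate 1 and 6.98% in replicate 2. In alignment-based TPM, Ctsb as a whole was also higher in replicate 1, with 1877 TPM against 1408 TPM, though lower relative to the median gene. In expected counts Ctsb-202 was higher in replicate 1, whereas Ctsb as a whole had 75698 in replicate 1 and 200945 in replicate 2.

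Ctss had 2 coding isoforms that differ at the start of exon 2, where Ctss-201 has 3 more bases. Their proportions were close in both libraries and both quantifications. Both isoforms are 1355 bases long, and Ctss-202 holds 3 bases elsewhere that Ctss-201 lacks. Exon 2 begins at 95529434 in Ctss-201 and at 95529437 in Ctss-202, so Ctss-201 has 341 codons and Ctss-202 has 340. The extra exon 2 bases of Ctss-201 are in capitals.
Ctss-202, chr3:95526902-95529460 (+): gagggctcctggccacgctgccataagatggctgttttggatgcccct
Ctss-201, chr3:95526902-95529460 (+): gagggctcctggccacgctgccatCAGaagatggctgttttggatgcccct
Ctss-202 had 402 TPM in replicate 1 and 411 TPM in replicate 2, against 112 TPM and 121 TPM for Ctss-201. Ctss-202 thus held 78.3% of the gene in replicate 1 and 77.2% in replicate 2. The read-based tables gave 77.3% and 76.9%.

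Ctsd also had 2 coding isoforms, but which of them led was not stable. Ctsd-202 carries 18 more coding bases, or 6 codons, than Ctsd-201, shown in capitals on the minus strand, and the isoforms also differ at their 5′ ends.
Ctsd-202, chr7:142377150-142377371 (-): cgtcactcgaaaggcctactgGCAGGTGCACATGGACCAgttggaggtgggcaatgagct
Ctsd-201, chr7:142377150-142377371 (-): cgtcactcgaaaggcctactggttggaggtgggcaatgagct
Ctsd-202 had 847 TPM in replicate 1 and 495 TPM in replicate 2, while Ctsd-201 had 467 TPM and 670.2 TPM. Ctsd-202 therefore held 64.2% of the gene in replicate 1 but 42.0% in replicate 2. In the read-based tables the change between the libraries ran the other way, with 55.7% in replicate 1 and 79.8% in replicate 2. The retained-intron isoform Ctsd-203 held 0.377% of the gene in replicate 1 and 1.05% in replicate 2, so Ctsd was assigned almost wholly to coding isoforms in both quantifications.

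Ctsa and Ctsl lay between these cases. Ctsa has 16 annotated isoforms, and its noncoding share was 33.8% in replicate 1 and 45.7% in replicate 2. By expected counts it was 11.3% and 12.7%, and by read-based TPM 51.8% and 54.1%. Its highest coding isoform, Ctsa-202, had 135 TPM in replicate 1 and 124 TPM in replicate 2, while its highest noncoding isoform, the retained-intron Ctsa-212, had 27.0 TPM and 82.7 TPM. As shares of the gene, Ctsa-202 held 42.6% in replicate 1 and 41.0% in replicate 2, and Ctsa-212 held 8.56% and 27.4%. In the read-based tables Ctsa-212 held 10.4% and 22.4%. Ctsl-201, the highest coding isoform of Ctsl, had 113 TPM in replicate 1 and 120.0 TPM in replicate 2. The retained-intron Ctsl-202, an RNA of 364 bases, held 9.65% of Ctsl in replicate 1 and 10.8% in replicate 2, but 50.1% and 22.7% in the read-based tables. Ctse-201 was the only Ctse isoform above 0 in the alignment-based tables.

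Counting only coding isoforms that hold the catalytic stretch changed the order among the 7 abundant members so examined. Such isoforms held 16.1% of Ctsh TPM in both libraries, 25.4% of Ctsc TPM in replicate 1 and 22.4% in replicate 2, and 48.3% and 44.8% of Ctsa TPM. For Ctsl they held 73.5% in replicate 1 and 81.1% in replicate 2, and for Ctsb 75.5% and 90.4%. On this count Ctsc had 131 TPM in replicate 1 and 71.8 TPM in replicate 2, below Ctsz, which has 1 isoform and kept 329 TPM and 285 TPM. In the read-based tables the share was again lowest in Ctsh and Ctsc, at 14.5% and 22.2% for Ctsh and 17.5% and 17.3% for Ctsc.

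**Figure D3:**
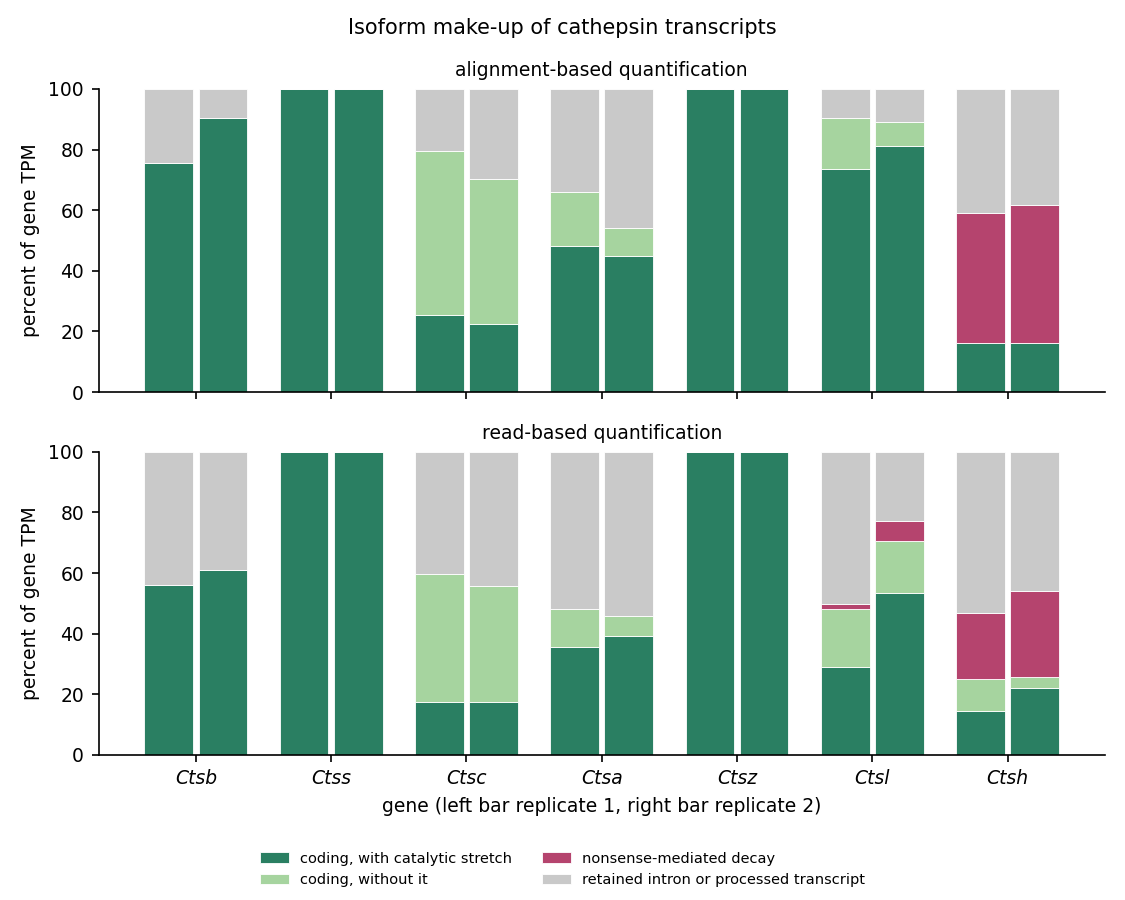
Percent of gene TPM by kind of isoform for 7 abundant cathepsins (all but Ctsd), with replicate 1 as the left bar and replicate 2 as the right bar of each pair, from the alignment-based tables (top) and the read-based tables (bottom). Coding isoforms with the catalytic stretch make up 16.1% of Ctsh in both alignment-based bars and all of Ctss and Ctsz in every bar.

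**Figure D4:**
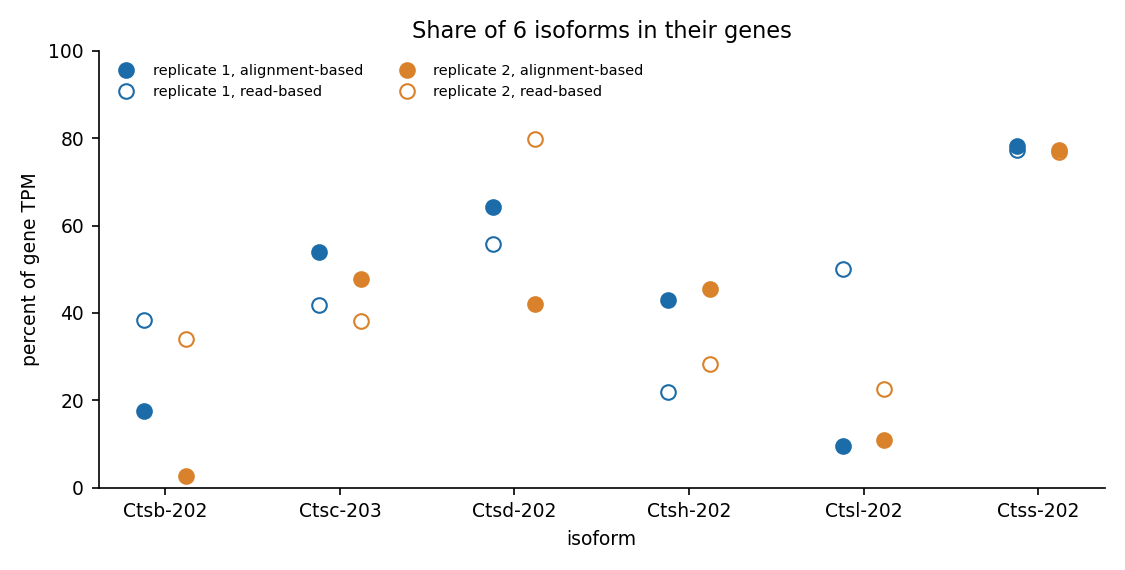
Percent of gene TPM held by 6 single isoforms, with replicate 1 left of replicate 2, filled points for the alignment-based and open points for the read-based tables. The 4 values of Ctss-202 lie between 76.9% and 78.3%, whereas those of Ctsd-202 lie between 42.0% and 79.8%.

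Other cathepsin genes were mostly silent, and a smaller share of them was detected than the 38.7% of protein-coding genes outside the mitochondrial genome. Of 13 further genes of the family, 2 had at least 1 TPM in each library, namely Ctso with 14.2 TPM in replicate 1 and 8.39 TPM in replicate 2, besides Ctsf with 3.16 TPM and 3.18 TPM. Ctsw, known from cytotoxic lymphocytes, had 0.73 TPM in replicate 1 and 0.32 TPM in replicate 2. Of the others, 9 were at 0 in both libraries, among them the placental genes Ctsj, Ctsm, Ctsq and Ctsr, which are named outside the rule for naming genes.

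All 17 genes of cathepsin processing and delivery had at least 1 TPM in each library, against 38.7% of protein-coding genes outside the mitochondrial genome. The median of the 17 genes was 27.6 TPM in replicate 1 and 20.5 TPM in replicate 2. Psap, the precursor of the saposins, was the highest with 3804 TPM in replicate 1 and 3273 TPM in replicate 2. Lgmn, the asparaginyl protease that cuts cathepsin precursors, had 495 TPM and 408 TPM, and the lysosomal membrane protein gene Lamp1 had 276 TPM and 248 TPM. Tfeb, a transcription factor of lysosomal genes, was the lowest with 3.83 TPM in replicate 1 and 4.01 TPM in replicate 2. The partners of cathepsin A, singled out after their values were seen, had similar levels to each other, with 19.1 TPM and 20.5 TPM for the neuraminidase gene Neu1 and 19.5 TPM and 19.4 TPM for the beta-galactosidase gene Glb1. Of the 17 genes, 13 had a relative replicate ratio below 0, with a median log2 value of -0.41. The median over the 11380 genes is 0 by definition, and 52.5% of protein-coding genes at 100 TPM or more lay below 0. No such share was calculated for genes at the level of this list. Of the 8 macrophage markers, 6 lay below 0, with a median of -0.3. Ratios below 0 were thus not limited to the cathepsins or to this list.

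Inhibitors of cathepsins had low levels beside the cathepsins. Of 13 inhibitor genes, 4 had at least 1 TPM in each library and 7 were at 0 in both. Over all protein-coding genes outside the mitochondrial genome, 38.7% had at least 1 TPM in each library. Cst3, which encodes the secreted cystatin C, had 40.4 TPM in replicate 1 and 55.0 TPM in replicate 2. Serpinb6a, an intracellular serpin gene, had 50.8 TPM and 35.6 TPM, and Cstb, the gene of cytosolic cystatin B, had 38.8 TPM and 26.4 TPM. Cst7, named after its values were seen, had 3.6 TPM in replicate 1 and 1.99 TPM in replicate 2. Summed, the inhibitors had 134 TPM in replicate 1 and 119 TPM in replicate 2, against 5163 TPM and 4278 TPM for the 10 cathepsins. These sums cover whole lists, and which inhibitor acts on which cathepsin was not examined.

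Cell type markers matched the macrophage label. All 8 macrophage markers had at least 1 TPM in each library, against 38.7% of protein-coding genes outside the mitochondrial genome. The 8 markers summed to 3149 TPM in replicate 1 and 2671 TPM in replicate 2. Neutrophil markers reached 1 TPM in both libraries for 2 of 6 genes, Ltf (1.78 TPM and 1.56 TPM) and S100a8 (1.67 TPM and 1.27 TPM). The 6 neutrophil markers summed to 4.58 TPM and 4.09 TPM, with Elane at 0 in replicate 1. None of 3 B cell, 3 T cell or 4 fibroblast markers reached 1 TPM in either library, and Cd3e, Cd8a and Dcn were at 0 in both. Depth was 10342882 expected counts over genes in replicate 1 and 20495545 in replicate 2.

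The protein-coding genes nearest in level to the 3 highest cathepsins were found by distance in log2(TPM + 1) over the 2 libraries. Tnfaip2 lay nearest to Ctsb, at a distance of 0.25, with 1873 TPM in replicate 1 and 1179.6 TPM in replicate 2. H2-D1 lay nearest to Ctsd with 1121 TPM and 1210.1 TPM, at a distance of 0.24, and Ftl1 lay nearest to Ctss with 570.4 TPM and 538 TPM, at a distance of 0.15. With 2 libraries this likeness describes level only.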

How the data were processed

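RNA was measured in 2 libraries of 1 group. Expected counts and TPM stand in deposited gene and transcript tables laid out like RSEM output, and estimated counts and TPM in further deposited transcript tables laid out like kallisto output, per the file headers. Per the authors' readme files, the build was mm10 with annotation M21, and the tables were made from alignments to transcripts (here alignment-based) and from the reads (read-based). The effective lengths and posterior SDs of counts are the authors' own, per the file headers. The programs, their versions, the filters and the strand setting are not stated in the labels or file headers. TPM divides by effective length, so few counts on a short RNA can give a high TPM and lower every other TPM.

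From these, gene symbols, positions, isoform types and sequences were taken from GENCODE M21, in which all 55536 gene identifiers were found. Spike-in and unnamed rows were left out; they took 0.504% of the counts of replicate 1 and 0.0968% of those of replicate 2. Libraries held 10395300 and 20515408 expected counts over all rows and 19734726 and 28995544 read-based counts. With 3 counts as the limit, a gene at 0 could have up to 0.290 CPM (counts per 1000000 gene counts) in replicate 1 and 0.146 CPM in replicate 2. Intervals and limits cover counting error only, since reads lacked molecular identifiers and so are not independent molecules. The libraries differed beyond counting noise (chi-square per degree of freedom 90.1 over 15667 genes), which shows only that they are not copies of 1 library; that they are biological replicates is taken from the labels. Detection was 1 TPM, and replicate ratios used genes that averaged at least 1 TPM and no pseudocount. The calculation of ratios and shares was tested on simulated data. A coding isoform was credited with the catalytic residue where it holds the exact stretch of 33 bases. The stretch of 1 member is not reported here. Python 3.11.15, pandas 2.3.3, numpy 2.4.6 and scipy 1.17.1 were used.

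The members and gene lists were chosen with earlier results of these data known. Named were all members, the highest coding and noncoding isoform of each, the 3 highest and the lowest gene of each list (any gene of a list of 12 or fewer), and the nearest gene in level for the 3 highest members. Genes that overlap members, and Ctsb-203, Ctsc-201, Ctsd-201 and Ctss-201, were added after their values were seen. Alternatives were the read-based tables, TPM over protein-coding genes, CPM, other thresholds and each library alone. Protein sequences were not used here.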

Additional observations from a re-analysis of the deposited data

How the results depend on the processing

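The number of cathepsins detected in both libraries was 8 and lay between 8 and 10 under all alternatives (8 and 9 with 1 library left out). Their median log2 ratio between replicates was -0.51 and lay between -0.58 and -0.38. The median level of 308 TPM was 154 TPM in the read-based tables, 1478 TPM over protein-coding genes only and 540.5 CPM, which are other scales, and lay between 294 and 322 TPM with 1 library left out. No cathepsin lay past 2-fold between replicates, against 1 (Ctsk) over protein-coding TPM, 1 in CPM and 1 with no filter on low values, the last chosen after seeing the data, and 3 (Ctss, Ctsa and Ctsl) at 1.5-fold. On the first 2 of these scales Ctsk passed the filter. Cathepsins with over 50% noncoding TPM numbered 1, against 2 (Ctsh and Ctsa) in the read-based tables and 2 at a threshold of 25%. For the counts past a fold or a noncoding share, the share over all genes was calculated only at the main settings. The alternative counts therefore describe the members only. Adding Gm49369 to Ctsd was also chosen after seeing the data. Depth limits Ctsk and Ctse most, at 8 to 50 counts. No paired analysis was possible because there is only 1 group.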
